A study of Mus musculus with 41 samples.

Results

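After SOX9 was switched on in mouse epidermal stem cells (EpdSCs), 521 regions of chromatin carried a SOX9 peak at week 1 (W1), week 2 (W2) and week 6 (W6) of induction, although no SOX9 peak was called there before induction (D0) and no MLL3/4 peak at D0, W1 or W2. These are called de novo SOX9 regions without MLL3/4 here. SOX9 peaks of W1, W2, W6 and W12 that overlapped by at least 1 bp were merged into 28549 regions. Of these, 10237 held a peak at W1, W2 and W6, and 9560 of the 10237 had no SOX9 peak at D0. The 521 regions were selected on these measured peak calls, so their SOX9 at W1, W2 and W6 and their lack of MLL3/4 peaks in skin are what defines them and are given as description only.

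SOX9 is a transcription factor of hair follicle stem cells. Its HMG domain binds a short DNA word in the minor groove and bends the DNA, and it counts among the pioneer factors, which can bind DNA that is wrapped in nucleosomes. SOX9 and other SOX proteins of its subgroup can bind as dimers at inverted pairs of that word. MLL3 and MLL4 are the methyltransferases that place a single methyl group on lysine 4 of histone H3 at enhancers. An MLL3/4 peak therefore marks chromatin on which this enhancer machinery sits.

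CUT&RUN (CNR) maps a protein on chromatin by sequencing the short DNA fragments that an antibody-directed nuclease releases around it. EpdSCs were sorted from the back skin of male CD1 mice of the genotype K14rtTA; TRE-myc-Sox9, in which doxycycline (DOX) induces MYC-tagged SOX9 in the cells where the Krt14 promoter drives rtTA. The sort kept cells negative for CD31, CD45, CD117, CD140a and CD34 and high for CD49f and Ly6A. DOX began at postnatal day 21. SOX9 was profiled at D0 (day 21), W1 (day 28), W2 (day 35), W6 (day 63) and W12, whereas MLL3/4 profiles ended with W2 and began with D0. The W12 skin had been grafted onto immunocompromised hosts, so that age and grafting cannot be told apart from the weeks of DOX. In culture, EpdSC keratinocytes transduced with MYC-tagged wild-type SOX9 (WT-SOX9), SOX9 lacking its transactivation domain (dTA-SOX9) or SOX9 lacking its HMG domain (dHMG-SOX9) were examined by MYC-tag and MLL3/4 CNR with DOX at 1 µg per ml, and WT-SOX9 cells also without DOX. Each group held 2 samples, called biological replicates in the labels, and was represented by 1 list of peaks called on the pooled samples. There was therefore no spread between replicates and no test between groups. Shares of regions are given with 95% Wilson intervals and differences between shares with 95% Newcombe intervals, and both cover counting error over regions only.

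Maximum signals in the SOX9 and MYC-tag lists were in RPKM, coverage scaled to the length in kb and to the read total. All maxima below 10000 RPKM were whole multiples of the value of 1 fragment, to within 0.02 of it, which for positions of 1 bp corresponds to 13.1 to 32.5 M fragments for the skin SOX9 lists and 4.04 to 6.09 M for the MYC-tag lists. The weakest peak kept had a maximum of 24 fragments at W2, 32 at W1 and 43 at W6. The values of the MLL3/4 lists were read as unscaled coverage, and the depth of these lists is unknown. A region without an MLL3/4 peak is one in which none was called at that depth, and MLL3/4 below the calling limit was not detectable.

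Of the 9560 de novo regions, the 521 without MLL3/4 made up 5.45%. MLL3/4 peaks were present at all of D0, W1 and W2 in 5793 regions (60.6%) and at both W1 and W2 but not D0 in 1840 (19.2%). A peak was called in a single MLL3/4 list in 137 regions for D0, 357 for W1 and 292 for W2, in 311 at D0 and W2 and in 309 at D0 and W1. The 521 regions were compared with the most similar sets. These are the 1840 regions that gained MLL3/4 by W1 and kept it at W2 (gaining regions) and the 6550 regions with a D0 MLL3/4 peak (pre-marked regions).

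The border of the selection was close for many regions. The regions with a peak in the W1 MLL3/4 list alone reached a median coverage of 6 at its maximum, and those of the W2 list alone 6, against 5 for the weakest of those peaks and 8 for the gaining regions in both lists. The nearest skin MLL3/4 peak lay 14 bp from the closest of the 521 regions and a median of 6.17 kb away (quartiles 1.96 and 18 kb). It lay within 1 kb of 89 regions, between 1 and 10 kb from 224 and farther away from 208. On the SOX9 side, 61 regions had a W1 maximum of at most 2000 RPKM, where the authors' limit stood at 1800 RPKM, as had 22 at W2 and 23 at W6. Just outside, 606 regions free of MLL3/4 lacked only the W1 peak, 282 only the W2 peak and 78 only the W6 peak, and 1 region was left out because of a D0 SOX9 peak alone.

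The DNA at the summits of these regions is shown first. The SOX word was searched on both strands as CCATTGT or CCTTTGT, or as GCATTGT or GCTTTGT, within 50 bp of the W2 summit, the centre of the W2 maximum. A paired word was searched as ACAA and TTGT on the same strand, that is 2 SOX cores facing each other, with 7, 8 or 9 bases between them, and the pair can share its bases with a SOX word. It was noticed in these data and then counted, so the counts describe it and do not test it. Sequences are from mm10 (GRCm38.p6), plus strand, 50 bases to each side of the summit, and capitals mark the SOX words and the paired cores. The first set shows regions that hold both a SOX word and a pair. They were taken from the regions of highest W2 signal and from those next to genes of lists on hair follicle and epidermal biology.
Sox5, chr6:144039333-144039433: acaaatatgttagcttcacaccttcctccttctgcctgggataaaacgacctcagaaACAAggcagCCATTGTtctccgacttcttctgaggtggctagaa
Col16a1, chr4:130056069-130056169: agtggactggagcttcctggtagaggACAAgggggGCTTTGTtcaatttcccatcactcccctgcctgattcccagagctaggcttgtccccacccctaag
Igsf3, chr3:101410916-101411016: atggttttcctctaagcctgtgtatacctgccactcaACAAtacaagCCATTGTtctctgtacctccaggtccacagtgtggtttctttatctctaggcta
Wdr75, chr1:45853073-45853173: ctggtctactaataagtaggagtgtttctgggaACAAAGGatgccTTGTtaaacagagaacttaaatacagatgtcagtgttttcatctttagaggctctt
Pkd2l1, chr19:44184393-44184493: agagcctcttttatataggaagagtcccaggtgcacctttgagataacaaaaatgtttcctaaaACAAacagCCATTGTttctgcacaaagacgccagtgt
Egln3, chr12:54354529-54354629: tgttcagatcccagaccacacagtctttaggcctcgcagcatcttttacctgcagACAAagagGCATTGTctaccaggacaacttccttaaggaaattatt

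Pairs also occurred where neither core belonged to a full SOX word, and the next set shows such regions, chosen after their letters were seen.
Hdgfl1, chr13:26160090-26160190: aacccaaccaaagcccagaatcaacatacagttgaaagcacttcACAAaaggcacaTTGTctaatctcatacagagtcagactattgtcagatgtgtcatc
Col1a1, chr11:94955288-94955388: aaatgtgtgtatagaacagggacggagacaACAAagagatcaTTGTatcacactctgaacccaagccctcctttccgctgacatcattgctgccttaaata
Itga8, chr2:12255998-12256098: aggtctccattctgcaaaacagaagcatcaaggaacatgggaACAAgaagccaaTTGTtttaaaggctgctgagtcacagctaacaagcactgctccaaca
Tcf7l2, chr19:55838164-55838264: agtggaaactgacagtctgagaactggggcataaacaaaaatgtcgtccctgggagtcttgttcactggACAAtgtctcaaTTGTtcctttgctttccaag
Sfrp1, chr8:23443061-23443161: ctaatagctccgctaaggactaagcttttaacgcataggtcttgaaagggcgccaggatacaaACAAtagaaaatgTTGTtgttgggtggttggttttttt

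Others held SOX words and no pair, and this set shows those of the same named regions. The Gtf2h2 and Bmp2 windows each hold 2 SOX words at other spacings than that of the pair.
Sox6, chr7:115669325-115669425: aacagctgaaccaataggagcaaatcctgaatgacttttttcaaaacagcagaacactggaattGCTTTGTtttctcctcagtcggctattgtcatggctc
Sox4, chr13:28632369-28632469: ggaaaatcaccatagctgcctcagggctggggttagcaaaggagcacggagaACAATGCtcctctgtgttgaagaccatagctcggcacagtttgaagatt
Cyp7a1, chr4:6292613-6292713: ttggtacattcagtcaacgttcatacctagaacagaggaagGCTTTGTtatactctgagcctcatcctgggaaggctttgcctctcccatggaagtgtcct
Maml3, chr3:52051988-52052088: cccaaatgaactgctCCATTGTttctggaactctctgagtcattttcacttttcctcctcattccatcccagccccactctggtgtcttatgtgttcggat
Gtf2h2, chr13:100461529-100461629: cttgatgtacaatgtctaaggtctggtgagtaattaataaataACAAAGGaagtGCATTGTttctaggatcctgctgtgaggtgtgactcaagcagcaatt
Bpifc, chr10:86006706-86006806: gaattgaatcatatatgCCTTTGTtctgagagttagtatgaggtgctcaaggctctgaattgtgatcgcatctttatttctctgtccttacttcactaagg
Bmp2, chr2:133317984-133318084: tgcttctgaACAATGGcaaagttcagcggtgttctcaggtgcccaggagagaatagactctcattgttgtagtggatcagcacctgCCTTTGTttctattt
Lrp6, chr6:134569834-134569934: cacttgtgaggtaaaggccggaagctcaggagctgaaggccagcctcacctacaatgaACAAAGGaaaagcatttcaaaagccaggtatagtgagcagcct
Tfap2c, chr2:172585235-172585335: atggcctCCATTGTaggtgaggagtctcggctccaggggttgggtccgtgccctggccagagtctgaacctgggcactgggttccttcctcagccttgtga
Efnb2, chr8:8123344-8123444: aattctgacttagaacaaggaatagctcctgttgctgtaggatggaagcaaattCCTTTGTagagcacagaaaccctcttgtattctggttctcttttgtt

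A SOX word lay at the summit of 227 of the 521 regions (43.6%, CI 39.4 to 47.9). All 17772 regions with a W2 peak held it in 15.7%, and windows 1 kb to either side of the 521 summits in 6.81%. The 521 regions exceeded gaining regions, at 33.5%, by 10.1 points (CI 5.36 to 14.9) and pre-marked regions, at 12.3%, by 31.3 points (CI 27.0 to 35.7). The regions without MLL3/4 thus held this SOX word most often of the 3 sets, while the share in the 521 depends on the letters searched and was 17.7% for CCATTGTT or CCTTTGTT, a search that added a T and left out both words starting with G.

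The paired word was found in 158 of the 521 regions (30.3%, CI 26.5 to 34.4), in 13.3% of gaining regions and in 2.61% of pre-marked regions. All regions with a W2 peak held it in 4.88%, and windows 1 kb from the 521 summits in 0.576%. The difference was 17.0 points from gaining regions (CI 12.9 to 21.3) and 27.7 points from pre-marked regions (CI 23.9 to 31.8). Either a SOX word or a pair was present in 281 of the 521 regions (53.9%), so that 240 had neither.

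The pairs kept to a narrow spacing. Facing cores stood 8 bases apart in 75 regions (14.4%), 9 apart in 49 (9.40%) and 7 apart in 36 (6.91%). At 6 bases the count was 2 and at 10 bases 8, and at no other distance from 0 to 15 bases did it exceed 8 of 521. The gaining regions had the same maximum at 8 bases, lower in height, with 6.25%, and pre-marked regions reached 1.34% there. Cores facing away from each other (TTGT, then ACAA) at the same distances had no such maximum in any of the 3 sets. Pairs sat close to the summit, at a median of 11 bp, and SOX words at 12 bp.

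**Figure D1:**
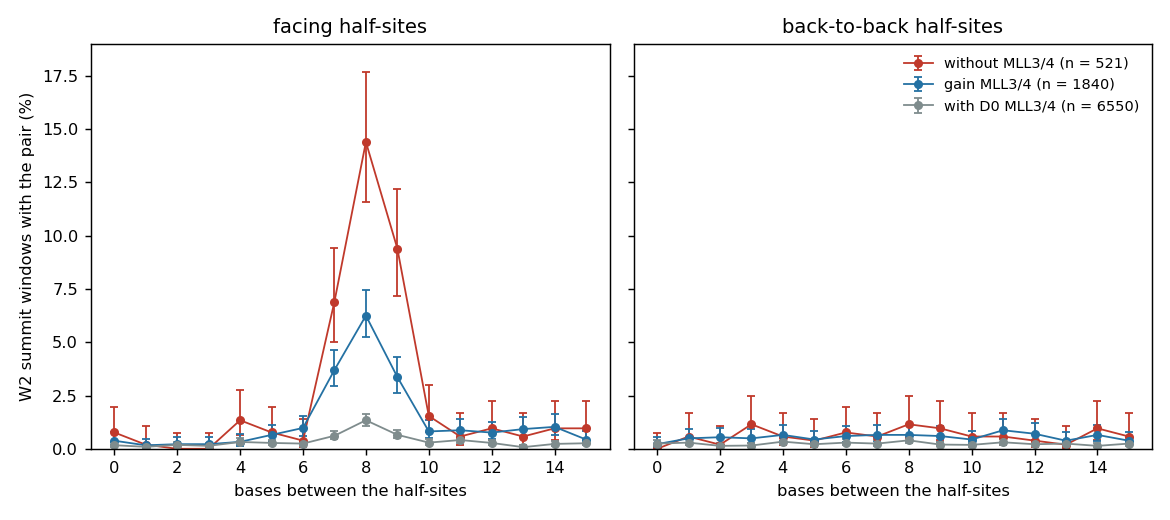
Share of W2 summit windows (vertical axis, %) that hold 2 SOX cores at each distance (horizontal axis, bases between them), for cores that face each other (left) and that face away (right). Points are shares of regions without MLL3/4, gaining regions and pre-marked regions, and bars are 95% Wilson intervals. Facing cores peak at 7 to 9 bases, to 14.4% in regions without MLL3/4, and those facing away do not peak.

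AP1 words (TGACTCA or TGAGTCA), the sites of FOS and JUN proteins, showed the opposite order. They were in 43 of the 521 windows (8.25%, CI 6.18 to 10.9), against 14.5% of gaining regions, 18.1% of pre-marked regions and 15.7% of all regions with a W2 peak. The difference was -6.20 points from gaining regions (CI -8.87 to -3.12) and -9.81 points from pre-marked regions (CI -12.1 to -6.98). The share still exceeded that of windows 1 kb away, 2.30%. AP1 words also sat farther from the summit than in the other sets, at a median of 25.5 bp against 16 bp in gaining regions and 17 bp in pre-marked regions.

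The other 11 words searched included none as frequent as the SOX word. The NFI word (TTGGCA) was in 8.64% of the regions without MLL3/4 and 9.67% of all regions with a W2 peak. The AP2 word (GCCNNNGGC) was in 4.03% and 5.37%, the KLF words (CCCCACCC or CCACACCC) in 2.88% and 4.02%, and the GATA words (AGATAAC or AGATAAG) in 2.88% and 2.72%. The shares were 2.5% and 2.05% for RUNX (AACCACA), 1.92% and 2.45% for GRHL (AACNNGTT), 1.73% and 2.44% for FOX (TGTTTAC or TATTTAC) and 1.34% and 2.19% for TEAD (ACATTCC). ETS (CCGGAAG) and LHX (CTAATTA) words were each in 0.960%, against 1.56% and 0.990% of all regions with a W2 peak, and LEF words (CTTTGATC or CTTTGAAC) in 0.768% against 0.720%. For each of these words the interval of the difference from gaining regions included 0, with the exception of ETS, which rested on 5 regions against 3 of 1840. The GC content of the windows had a median of 46.5%, between 45.5% in gaining and 49.5% in pre-marked regions, and 7 of the 521 windows lay mostly in annotated repeats.

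**Figure D2:**
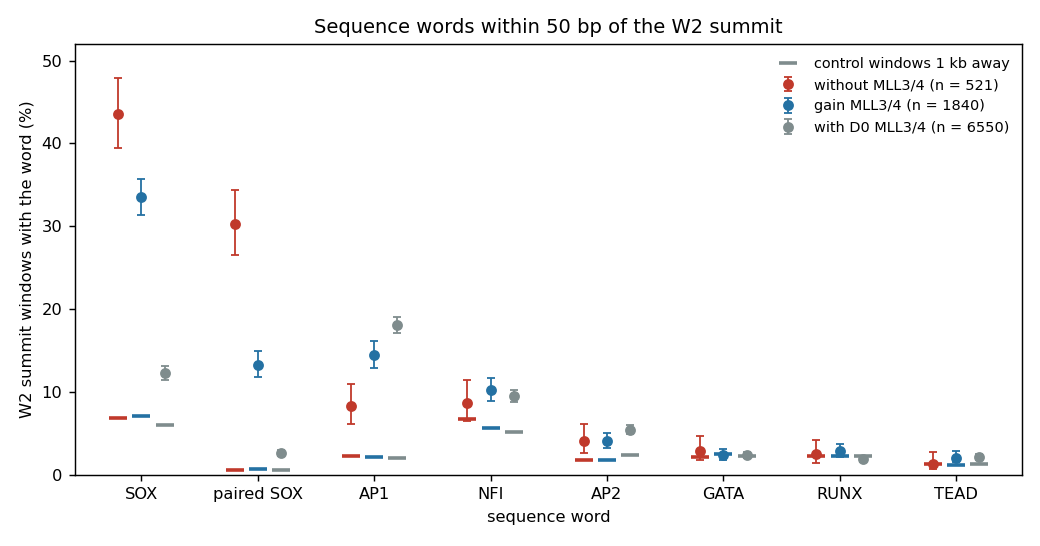
Share of windows within 50 bp of the W2 summit (vertical axis, %) that hold each sequence word (horizontal axis), with points and 95% Wilson intervals for the 3 sets and short lines for windows 1 kb away. SOX and paired SOX words fall from regions without MLL3/4 (43.6% and 30.3%) to pre-marked regions (12.3% and 2.61%), and AP1 words rise from 8.25% to 18.1%.

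SOX9 at these regions was narrow and of moderate height, values that describe how the regions were chosen. The merged regions had a median width of 593 bp, against 855 bp for gaining and 849 bp for pre-marked regions. Their median maximum was 2766 RPKM at W1, 3438 at W2 and 3904 at W6, which corresponds to 48, 45 and 93 fragments. Gaining regions had 4034, 4584 and 4366 RPKM, and pre-marked regions 2881, 3820 and 3064 RPKM. The regions without MLL3/4 were thus the lowest of the 3 sets at W1 and W2 and stood between the others at W6.

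The course over time describes lists that the choice used, pooled and of unequal depth (17.4 M fragments at W1, 13.1 M at W2 and 23.8 M at W6), and was not tested. The W6 maximum exceeded the W1 maximum in 389 of the 521 regions and the W2 maximum did so in 372. W6 gave the highest of the 3 values in 288 regions, W2 in 157 and W1 in 76. The medians of gaining and pre-marked regions were highest at W2. The W1 and W2 summits of the 521 regions lay a median of 8 bp apart, a distance that the width of the peaks limits.

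**Figure D3:**
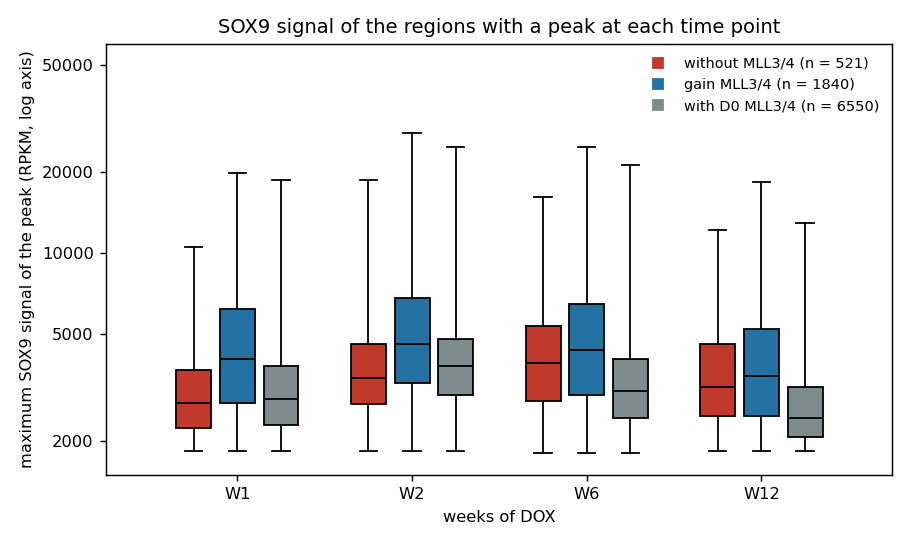
Maximum SOX9 signal of the peak (vertical axis, RPKM, log axis) at each time point (horizontal axis) in the 3 sets, over the regions that held a peak there, which at W12 were 321, 1227 and 2607. Boxes span the quartiles with a line at the median and whiskers reach the lowest and highest region. The median of regions without MLL3/4 is 2766 RPKM at W1 and 3904 RPKM at W6, and 3171 RPKM in the 321 regions with a W12 peak.

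The choice required neither a W12 peak nor its absence, but W12 peaks were merged into the regions and could set their borders. The 28549 merged regions used for comparison include any formed by a W12 peak alone. A W12 SOX9 peak overlapped 321 of the 521 (61.6%, CI 57.4 to 65.7), against 33.6% of all 28549 merged regions and 49.9% of the 10237 regions with W1, W2 and W6 peaks, which include the 521. The share was 66.7% in gaining regions and 39.8% in pre-marked regions. The difference from gaining regions was -5.07 points (CI -9.82 to -0.447), and that from pre-marked regions was 21.8 points (CI 17.4 to 26.1). When the same regions were moved 10 kb to either side, 1.73% met a W12 peak. The W12 summit lay a median of 9 bp from the W2 summit. The 321 regions with a W12 peak had a median W6 maximum of 4869 RPKM and the 200 without one 2729 RPKM.

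The cultured keratinocytes gave lists that neither the choice nor the merging used. MYC-tag peaks of WT-SOX9 overlapped 170 of the 521 regions (32.6%, CI 28.7 to 36.8), compared with 12.2% of all merged regions and 20.3% of the 10237 with W1, W2 and W6 peaks. Gaining regions reached 34.7%, a difference of -2.10 points (CI -6.57 to 2.56), and pre-marked regions 13.8%, a difference of 18.8 points (CI 14.8 to 23.0). Cells without DOX, the background of the MYC-tag antibody, met 5 of the 521 (0.960%), where all merged regions had 4.30%. dHMG-SOX9, which lacks the DNA-binding domain, met 4 of the 521 (0.768%), against 5.42% of all merged regions. Few of the regions were thus met by the protein without the HMG domain, and about as few by the tag antibody in cells without DOX.

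The transactivation mutant behaved otherwise. dTA-SOX9 peaks overlapped 42 of the 521 (8.06%, CI 6.02 to 10.7), although they overlapped more of all merged regions (17.5%) than WT-SOX9 did. The share was 17.2% in gaining and 24.9% in pre-marked regions, differences of -9.17 points (CI -11.9 to -6.04) and -16.9 points (CI -19.2 to -14.0). WT-SOX9 alone met 147 regions, both proteins 23, dTA-SOX9 alone 19 and neither 332. Where WT-SOX9 peaks were present, their maximum had a median of 3447 RPKM (21 fragments) in regions without MLL3/4 and 3283 RPKM in gaining regions. The MYC-tag lists rested on 4.04 to 6.09 M fragments and the W1 to W12 lists on 13.1 to 23.8 M.

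MLL3/4 peaks in culture were fewer at the 521 regions than in both other sets. Without DOX, 61 regions (11.7%, CI 9.22 to 14.8) held an MLL3/4 peak, compared with 25.5% of gaining regions, 71.8% of pre-marked regions and 44.7% of all merged regions. With WT-SOX9, 114 regions held one (21.9%, CI 18.5 to 25.6), against 21% of all merged regions and 35.4% of the 10237 with W1, W2 and W6 peaks. Gaining regions reached 39.8%, a difference of -18 points (CI -22.0 to -13.6), and pre-marked regions 34.0%, a difference of -12.2 points (CI -15.7 to -8.25). dTA-SOX9 cells had MLL3/4 peaks at 39 regions (7.49%, 33.5% of all merged regions) and dHMG-SOX9 cells at 47 (9.02%, 34.4% of all merged regions). None of the 4 cultured MLL3/4 lists met 363 of the 521 (69.7%), compared with 48.3% of gaining regions, 22.2% of pre-marked regions and 45.3% of all merged regions.

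**Figure D4:**
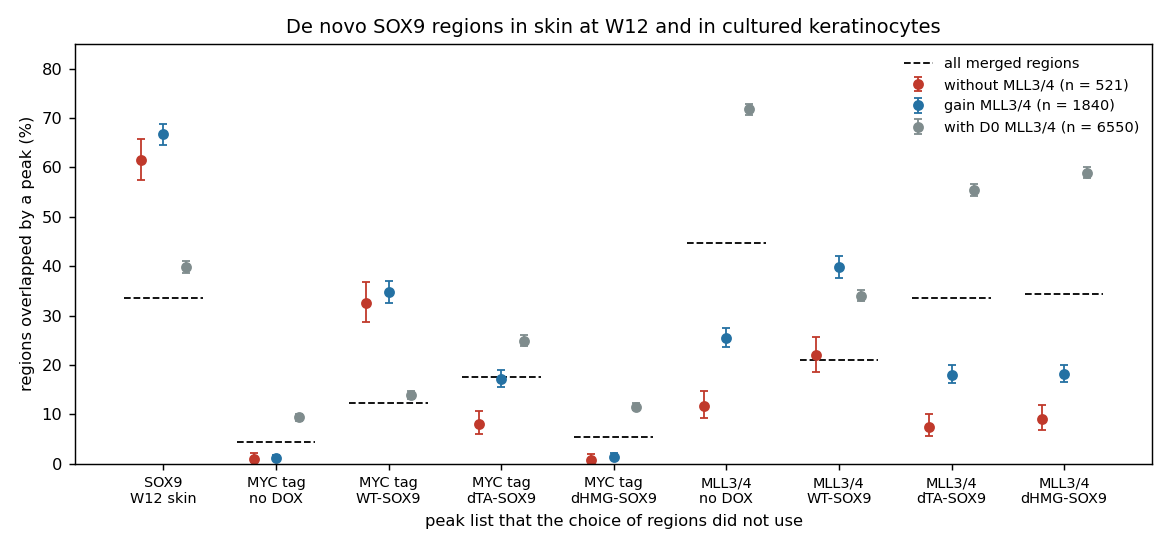
Share of regions overlapped by at least 1 bp of a peak (vertical axis, %) in 9 lists (horizontal axis). The choice required neither a peak nor its absence in these lists, though W12 peaks were merged into the regions. Points and 95% Wilson intervals are for the 3 sets and dashed lines for all 28549 merged regions. Regions without MLL3/4 lie near gaining regions for W12 SOX9 (61.6% and 66.7%) and WT-SOX9 (32.6% and 34.7%) and below both other sets in all 4 MLL3/4 lists.

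Some regions held MLL3/4 in culture with induced WT-SOX9 but not without DOX. A peak with WT-SOX9 and none without DOX was found at 90 of the 521 regions (17.3%, CI 14.3 to 20.8), compared with 24.7% of gaining regions (CI 22.8 to 26.8), 2.95% of pre-marked regions (CI 2.56 to 3.38) and 6.07% of all merged regions. The reverse, a peak without DOX and none with WT-SOX9, was found at 37 of the 521 (7.10%), 10.4% of gaining regions, 40.7% of pre-marked regions and 29.8% of all merged regions. Only a region with a no-DOX peak can lose one, and only a region without it can gain one, so these shares depend on no-DOX occupancy. Of the regions with a no-DOX peak, 37 of 61 members, 191 of 469 gaining, 2663 of 4700 pre-marked and 8499 of 12758 merged regions lost it. The lists differed in length, with 33975 MLL3/4 peaks without DOX and 10543 with WT-SOX9. Of the 90 gains, 79 lay at regions that WT-SOX9 bound in culture, and the 351 others had 11 gains and 31 losses. Of the 170 regions with a WT-SOX9 MYC-tag peak, 91 held an MLL3/4 peak with WT-SOX9 (53.5%, CI 46.0 to 60.9), and 23 of the 351 others did (6.55%), a difference of 47.0 points (CI 38.9 to 54.6). Among all 3486 merged regions with a WT-SOX9 MYC-tag peak the share was 68.6%. The bound gaining regions reached 79.3%, a difference of -25.8 points (CI -33.9 to -17.8). Counted as gains over cells without DOX, the shares of bound regions were 46.5% in the 521, 52.9% in gaining regions and 33.7% in all merged regions. The difference between the first pair was -6.42 points (CI -14.7 to 2.01). Regions with a no-DOX peak cannot gain one, and these were 18 of 170 bound members and 186 of 639 bound gaining regions. The shares were not computed over the regions that could gain, so this interval does not show equal gain. Bound regions that met no cultured MLL3/4 list numbered 72 of 170 (42.4%), against 17.4% in bound gaining regions.

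The paired word and the single SOX word were compared inside the set of 521. A W12 peak was present at 70.3% of the 158 regions with a pair, 65.0% of the 123 with a SOX word and no pair and 54.2% of the 240 with neither. The first and last differed by 16.1 points (CI 6.33 to 25.2). WT-SOX9 MYC-tag peaks followed the same order, with 40.5%, 39.8% and 23.8%. The median W2 maximum was 4125, 3514 and 3056 RPKM. Regions with SOX sequence thus more often held a W12 and a WT-SOX9 peak than those with neither, and pairs and single words did not differ from each other in W12 (5.21 points, CI -5.68 to 16.2) or WT-SOX9 binding (0.669 points, CI -10.8 to 12) beyond counting error, since both intervals included 0.

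Pairs and single words did differ for dTA-SOX9. It met 4 of 158 regions with a pair (2.53%), 15 of 123 with a single SOX word (12.2%) and 23 of 240 with neither (9.58%). The difference between pairs and single words was -9.66 points (CI -16.8 to -3.65). The no-DOX MLL3/4 list met 6.33% of regions with a pair and 16.2% of those with neither, a difference of -9.92 points (CI -15.8 to -3.49). MLL3/4 with WT-SOX9 met 19.6% of both, and 29.3% of regions with a single SOX word, which exceeded those with neither by 9.68 points (CI 0.543 to 19.4). Among the WT-SOX9-bound regions it met 29 of 64 with a pair and 29 of 49 with a single word, and the difference of -13.9 points had an interval of -31.0 to 4.59.

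AP1 words were compared in the same way. Of the 43 regions that held one, 79.1% had a W12 peak, against 60.0% of the 478 without (difference 19 points, CI 4.12 to 29.5). No-DOX MLL3/4 peaks were present at 25.6% of them against 10.5% (difference 15.1 points, CI 4.04 to 30.0) and dTA-SOX9 peaks at 16.3% against 7.32% (difference 8.96 points, CI 0.362 to 22.8). The intervals included 0 for WT-SOX9 MYC-tag peaks (-10.2 points, CI -21.2 to 4.84), MLL3/4 with WT-SOX9 (1.5 points, CI -9.34 to 16.4) and the pair (-12.8 points, CI -22.6 to 1.80).

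Because the 521 regions had lower SOX9 signal than gaining regions, the shares were also compared within ranges of the W2 maximum, set at the terciles of the 521 (up to 2980 RPKM, up to 4125 RPKM and above). The paired word was more frequent in regions without MLL3/4 than in gaining regions in every range, with 14.6% against 3.61%, 30.7% against 7.42% and 46.7% against 18.8%. The smallest of these differences was 11 points (CI 5.85 to 17.1) and the largest 27.9 points (CI 20.1 to 35.8). For the W12 peak the differences from gaining regions were 3, 8.28 and 1.58 points with intervals that included 0, so the lower pooled share was not seen within ranges. WT-SOX9 MYC-tag peaks likewise differed by 6.73, 4.91 and 2.78 points with intervals that included 0. Cultured MLL3/4 with WT-SOX9 was lower than in gaining regions in each range, with differences of -9.11 points (CI -16.6 to -0.963), -15.3 points (CI -22.0 to -7.67) and -19.5 points (CI -26.2 to -11.8). From pre-marked regions it differed by -2.03 points (CI -7.85 to 4.88) in the lowest range, by -11.5 points (CI -16.8 to -4.85) in the middle and by -19.2 points (CI -25.5 to -11.8) in the upper range. The SOX word exceeded that of gaining regions by 6.58 points in the lowest range, with an interval of -1.30 to 14.8, and by 21.1 points (CI 12.8 to 29.3) and 16.2 points (CI 8 to 24.0) above it. AP1 words differed by -7.28 and -8.24 points in the lower ranges (CI -12.8 to -1.03 and -12.9 to -2.63), and in the upper range the difference of -4.66 points had an interval of -8.76 to 0.990. Width was not matched. When moved by 10 kb, 2.69% of the 521, 4.92% of gaining and 6.56% of pre-marked regions met the no-DOX MLL3/4 list.

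**Figure D5:**
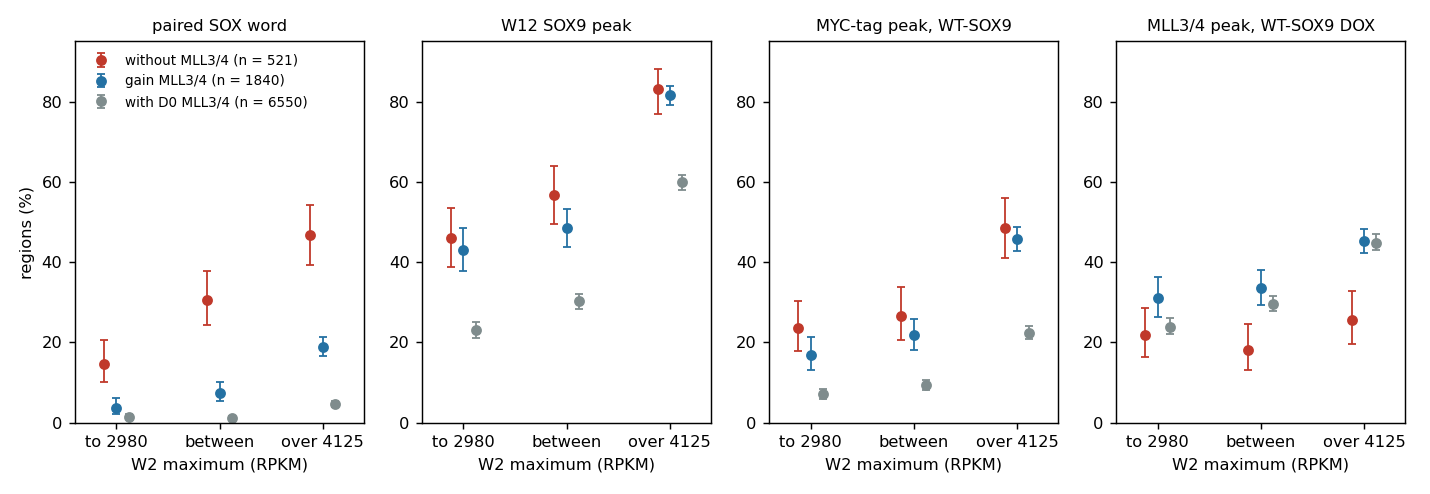
Share of regions (vertical axes, %) with a paired SOX word, a W12 SOX9 peak, a WT-SOX9 MYC-tag peak and a WT-SOX9 MLL3/4 peak (panels) in 3 ranges of the W2 maximum (horizontal axis, RPKM), with points for the 3 sets and 95% Wilson intervals. In each range the paired word is most frequent in regions without MLL3/4, up to 46.7%, and W12 and WT-SOX9 shares lie near those of gaining regions.

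By position of the W2 summit in the GENCODE vM21 annotation, 241 of the 521 regions were intronic (46.3%) and 193 intergenic (37.0%). Promoters, within 1 kb of any annotated transcript start, held 72 (13.8%, CI 11.1 to 17.0), 3 summits lay in coding exons, 5 in untranslated exons and 7 in exons of noncoding transcripts. All regions with a W2 peak were at promoters in 26.4%, gaining regions in 7.61% and pre-marked regions in 30.6%. The 521 regions thus exceeded gaining regions by 6.21 points (CI 3.21 to 9.63) and differed from pre-marked regions by -16.8 points (CI -19.7 to -13.4). Among regions with SOX9 maxima above 3600 RPKM the latter difference was not seen, with 19.3% of 88 against 18.6% of 1581 at promoters. The nearest protein-coding start was a median of 17.7 kb away, against 27.4 kb in gaining and 9.98 kb in pre-marked regions. The paired word occurred in promoters (27.8%), introns (30.3%) and intergenic regions (31.1%).

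Regions close to a skin MLL3/4 peak held fewer W12 and WT-SOX9 peaks than distant ones. Of the 89 regions within 1 kb of one, 43.8% held a W12 peak, against 67.3% of the 208 farther than 10 kb, a difference of -23.5 points (CI -35.0 to -11.2). WT-SOX9 MYC-tag peaks were at 21.3% and 35.6%, a difference of -14.2 points (CI -24.1 to -2.80). The near and distant regions also differed in median SOX9 maximum, with 2939 and 2708 RPKM at W1, 3285 and 3514 at W2 and 3442 and 4114 at W6. Whether signal accounts for the shares was not tested. The paired word was in 29.2% and 37.0%, a difference with an interval of -18.6 to 4.13 points. The 224 regions at 1 to 10 kb had a W12 peak in 63.4%, a WT-SOX9 peak in 34.4% and a pair in 24.6%, so that the pair did not follow the distance in order.

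The 10 regions of highest total W2 signal all held a W12 peak and a WT-SOX9 MYC-tag peak, and 8 held an MLL3/4 peak with WT-SOX9, against 61.6%, 32.6% and 21.9% of the 521. Among the 170 members with a WT-SOX9 MYC-tag peak, 53.5% held that MLL3/4 peak. None of the 10 held a dTA-SOX9 peak or an MLL3/4 peak without DOX, against 8.06% and 11.7% of the 521. SOX words were at 8 summits, pairs at 6 and an AP1 word at 1. The nearest protein-coding gene is given only as a landmark. In an intron of Pkd2l1, a cation channel gene, the region chr19:44184090-44184661 had maxima of 5417 RPKM at W1, 13828 at W2 and 9949 at W6, then 4596 RPKM in the W12 list and 7387 RPKM for WT-SOX9 in culture. It was highest at W2. An intergenic region 610 kb from Hdgfl1 (chr13:26159622-26160672) had 2132 RPKM at W1, 9091 at W2 and 13349 at W6, with 11536 at W12 and 7880 in culture. Its nearest MLL3/4 peak was 88.7 kb away.

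Sox6, the gene of another SOX protein, held the region of next highest signal in an intron 7.01 kb from a start (chr7:115669117-115670213), with 2996, 6723, 7556 and 1976 RPKM in the 4 skin lists from W1 to W12 and 8044 RPKM in culture. A region 109 kb from Atp8b1, which encodes a phospholipid flippase, had 10545, 15280, 10620 and 6618 RPKM and 3612 RPKM in culture (chr18:64769852-64770785). It was the strongest of the set at W1. The region 30.6 kb from Wdr75, a ribosome biogenesis gene, had 3688, 9779, 10746 and 10203 RPKM and 8044 RPKM in culture (chr1:45852865-45853307). Like the region 17030 bp from Cyp7a1, the gene of the rate-limiting enzyme of bile acid synthesis, it was higher at W6 and W12 than at W1, and the latter had 3746, 10008, 16119 and 12225 RPKM with 2955 RPKM in culture (chr4:6292361-6293127).

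In Fggy, a carbohydrate kinase gene, an intronic region had 3861, 8327, 10284 and 10111 RPKM and 6238 RPKM in culture (chr4:95721621-95722425), with neither a SOX word nor a pair at its summit. The intronic region of Maml3, a Notch coactivator gene, had 9105, 11001, 12048 and 8272 RPKM and 5089 RPKM in culture (chr3:52051667-52052401), and carried the AP1 word. The remaining top regions had lower W12 values than W2 values. At Igsf3 (chr3:101410805-101411424) the maxima were 6223, 11994, 9403 and 6664 RPKM, with 9686 RPKM in culture, and 150719 bp from Egln3, the gene of a prolyl hydroxylase of hypoxia-inducible factors, they were 4264, 9473, 6213 and 3677 RPKM, with 3940 RPKM in culture (chr12:54354416-54355012). No cultured MLL3/4 list met the Egln3 or the Atp8b1 region.

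By total MYC-tag signal of WT-SOX9, summed over the peak, the leading regions that no no-DOX MYC-tag peak met were, beside that near Hdgfl1, an intron of Lmnb1, the lamin B1 gene, with a maximum of 24953 RPKM, and regions 42.1 kb from Tfpi, the gene of a coagulation inhibitor, with 7716 RPKM, at Gtf2h2, a TFIIH subunit gene, with 9521 RPKM and at Bpifc with 9686 RPKM. In skin the Lmnb1 region (chr18:56744598-56745413) had 2593, 3285, 10620 and 9789 RPKM from W1 to W12. The Gtf2h2 promoter region (chr13:100461208-100462021) had 1902, 4737, 11586 and 11719 RPKM. Both were several times higher at W6 than at W1. All 5 of these regions held an MLL3/4 peak with WT-SOX9 in culture, as did 53.5% of the 170 members and 68.6% of all merged regions with a WT-SOX9 peak, and only the one at Bpifc held one without DOX and a dTA-SOX9 peak (7179 RPKM).

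Nearest genes were spread widely. The 521 regions had 487 nearest protein-coding genes, 457 of them with a single region. The genes with more than 2 were picked out after the counts were seen. Nck2, an adaptor of receptor tyrosine kinases, had 4 of the 13 regions with a W2 peak that were nearest to it, Bcl11a, a zinc finger repressor gene, had 3 of 19, and Dtna, a gene of the dystrophin complex, had 3 of 4. No chromosome held more than 45 regions (8.64%, chromosome 2). Gene lists were then followed by the nearest gene, 11 lists in all.

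Among hair follicle stem cell transcription factors, 4 regions were nearest to a listed gene (0.768%, against 0.698% of all regions with a W2 peak and 1.36% of gaining regions). They were at Nfatc1, Nfia, Runx1 and Tcf7l2. The intronic Nfatc1 region had 4898, 8022 and 3736 RPKM at W1, W2 and W6 and no W12 peak, and that in Runx1 (chr16:92725103-92726013) had 1844, 3667 and 4618 RPKM and no W12 peak. The region in Tcf7l2, a WNT effector gene, had 2651, 3820 and 3400 RPKM (chr19:55837960-55838691). These 3 regions had neither a W12 peak nor a WT-SOX9 peak in culture, whereas the Nfia region had both, with 2895 and 2298 RPKM. Hair follicle surface and secreted markers had 2 regions (0.384%, 0.203% of all W2 regions). They were at Sfrp1, a secreted WNT inhibitor, with 2363, 2903 and 3022 RPKM, and at Ltbp2, an extracellular matrix protein gene, with 1844, 2063 and 1847 RPKM. RUNX genes and Cbfb had the Runx1 region alone (0.192%, against 0.208% of all W2 regions and 0.924% of gaining regions).

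Genes of the SOX family were nearest to 5 regions (0.960%, CI 0.411 to 2.23), against 0.259% of all regions with a W2 peak and 0.272% of gaining regions. The count rests on 4 genes, Sox2, Sox4, Sox5 with 2 regions and Sox6. The leading Sox5 region, in an intron, had 4034, 5883, 6674 and 4458 RPKM from W1 to W12 (chr6:144039072-144040287). The Sox4 region lay 321 kb from the gene and had 2190, 5195, 6632 and 4596 RPKM (chr13:28632033-28632688). Neither was met by a WT-SOX9 peak in culture, while the Sox6 region and the Sox2 region, 118 kb from its gene, were (5253 RPKM at the latter).

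Epidermal fate genes had 2 regions (0.384%, against 0.664% of W2 regions), near the AP-2 factor genes Tfap2a and Tfap2c. The Tfap2c region had 2824, 2980 and 3442 RPKM and no W12 peak, and the Tfap2a region had 3342, 2980, 3904 and 2941 RPKM. The AP-1 genes had 2 regions (0.384%, against 0.225%), near Fosl2 with 3169, 5348 and 5205 RPKM and no W12 peak, and near Jun with 2305, 2139, 3568 and 1976 RPKM. Each of these counts rests on 2 regions. Hedgehog genes had 1 region (0.192%, against 0.203%), 119 kb from the receptor gene Ptch1, with 1902, 2827, 4072 and 3769 RPKM and 3119 RPKM in culture.

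WNT genes had 5 regions (0.960%, against 0.630%). They were nearest to the target gene Axin2, the co-receptor gene Lrp6, the inhibitor gene Sfrp1, Tcf7l2 and the co-repressor gene Tle3 (209 kb away). The Lrp6 region had 2305, 2445, 5037 and 2849 RPKM and 4925 RPKM in culture (chr6:134569619-134570087). TGF-beta and BMP genes had 5 (0.960%, against 0.540%), of which 2 were nearest to the ligand gene Bmp2. The others were nearest to the receptor genes Acvr2a (355 kb away) and Tgfbr2 (155 kb) and to the inhibitory Smad7 (25.1 kb). The leading Bmp2 region lay 234 kb from the gene and had 2132, 5424, 6968 and 3263 RPKM and 3447 RPKM in culture. It held an MLL3/4 peak with WT-SOX9 and none without DOX, as the Lrp6 region did.

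Collagen, integrin and laminin genes had 7 regions (1.34%, CI 0.652 to 2.75, against 0.709%). The region 9.97 kb from Col1a1, a collagen I chain gene, had 6684, 10543, 8186 and 5055 RPKM and 2462 RPKM in culture (chr11:94954972-94955735). At the Col16a1 promoter the values were 2363, 6952, 7430 and 4412 RPKM and 1806 RPKM in culture (chr4:130055546-130056253). The intronic region of Itga8, an integrin subunit gene, had 2478, 5424, 10914 and 5699 RPKM and 11491 RPKM in culture (chr2:12255641-12256340). These 3, the highest of the list at W2, carried a pair, and the other 4 regions, of which 2 were at Col9a3 and 1 each at Itgb5 and Lama4, carried none. MLL3/4 peaks with WT-SOX9 were at the Itga8, Lama4 and 1 of the Col9a3 regions. Semaphorin, plexin, ephrin and Eph receptor genes had 4 regions (0.768%, against 0.850%), with W2 maxima from 1986 to 2598 RPKM. They were nearest to Efna4 (0.07 kb away), Efnb2 (516 kb), Epha4 (118 kb) and Sema3a.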

How the data were processed

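SOX9, MYC-tag and MLL3/4 CNR was measured in sorted EpdSCs and cultured keratinocytes. Of 41 samples, 32 stood behind the peak lists, and the 9 of JUN, ARID1a or BRG1 were not analysed here. The authors sequenced 40 bp pairs, which Skewer trimmed, Bowtie2 2.2.9 placed on mm10 and Picard cleared of duplicates. SAMtools 1.3.1 selected fragments up to 120 bp long and joined the replicates, per the labels and methods. Coverage tracks came from deepTools 3.1.2 and peaks from SEACR (stringent, threshold 0.01). The maximum signal of a peak is RPKM computed by the authors in the SOX9 and MYC-tag lists, with a lower limit of 1800. In the deposited MLL3/4 lists the signal was read as unscaled coverage from its low values, with median maxima of 7 to 13. The authors describe RPKM tracks, and the skin MLL3/4 lists are labelled RPKM. Total signal is the sum over a peak. The 16 pooled lists were used, and 2 lists of single replicates were not. For WT-SOX9 with DOX, the descriptions call each of the MLL3/4 samples replicate 2, and the replicates pooled in that list are therefore uncertain.

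Overlaps and words were computed in Python 3.11.15 using numpy 2.4.6 and pandas 2.3.3, with statsmodels 0.14.6 for intervals and matplotlib 3.10.9 for plots. Peaks outside the autosomes, X and Y were left out, and 0 peaks ended beyond a reference chromosome. Overlap means at least 1 bp, and the moved-region background uses 10 kb to each side. Words were counted within 50 bp of the W2 summit, with control windows 1 kb away. Depth came from the smallest step of the maximum signals. The overlap, merging and word counts were tested on simulated data. Each group has 1 list, so no test between groups was made.

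The members, gene lists, comparison sets and words were chosen with earlier results of these data known. Named were the 10 regions of highest W2 total signal, the 5 of highest WT-SOX9 MYC-tag total signal that no no-DOX peak met, and up to 3 per gene list by W2 total signal. Sequences were printed for those outside chromosome 18 with a SOX word, and additional ones with a pair alone. The paired word was added after the data were seen. Alternatives changed the overlap, merging, signal limits, MLL3/4 distance, chromosomes, summit, window, word and promoter size.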

Additional observations from a re-analysis of the deposited data

How the results depend on the processing

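No paired analysis was possible because the groups compared are pooled lists without replicate values. Lists of replicate 1 alone were held for 2 groups without DOX and not for the groups they would be compared with, so leaving out replicates was not run. The number of regions and all shares kept to within 1.5 times or within the main 95% interval with 50% overlap, merging of peaks within 500 bp, no MLL3/4 peak within 1 kb and autosomes only. SOX9 maxima above 3600 RPKM left 88 regions by construction, with a W12 peak at 56.8%, WT-SOX9 MYC-tag peak at 53.4%, cultured MLL3/4 with WT-SOX9 at 26.1%, SOX word at 59.1%, paired word at 51.1% and promoters at 19.3%. Counting only the upper 50% of each skin MLL3/4 list gave 1522 regions, with 52.6% for W12, 26.0% for WT-SOX9 MYC-tag, 33.5% for the SOX word, 17.3% for the paired word, 12.7% for AP1 and 24.3% for promoters. Under these settings gaining regions held the paired word in 22.8% and 10% and cultured MLL3/4 with WT-SOX9 in 50.7% and 40.8%, so both directions were as in the report. Gaining regions held W12 peaks in 60.5% and 63.5% and WT-SOX9 MYC-tag peaks in 55.0% and 32.0%. With the upper 50% of the lists, both shares thus lay farther below gaining regions than in the main setting. Above 3600 RPKM, promoters were 18.6% in pre-marked regions, below the 19.3%, which turned that direction. Windows of 100 bp to each side gave 52.4% for the SOX word, 37.2% for the paired word and 15.9% for AP1, a search for CCATTGTT and CCTTTGTT, without the words starting with G, gave 17.7%, and promoters of 2.5 kb gave 24.2%. W1 and W6 summits moved no share beyond its interval. The alternatives for the paired word were added after the data were seen. Unknown MLL3/4 depth limits what counts as absent.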
